A study of Mus musculus with 6 samples.

Results

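The genes described here are 10 markers of macrophage identity and activation: Emr1, Cd68, Csf1r, Mrc1, Cd163, Arg1, Nos2, Trem2, C1qa and C1qb. They were taken by gene symbol from the 15280 genes of the expression table, and all 10 were present. RNA-Seq was performed on 3 mammary tumors and on the normal gland next to each of them, from 3 parous female BK5.ATF3 transgenic mice that had borne 1 litter. In these mice the bovine keratin 5 promoter drives ATF3 in basal epithelial cells, and both tissues of every comparison carried the transgene, so that no nontransgenic gland was included. Tumors arose at 6 to 12 months of age, and mice were sacrificed when a tumor reached 1.5 cm in length. Each library came from 1 piece of tissue. Glands are written M and tumors T, each followed by the number of the mouse (M11035, M11640, M9232, T11035, T11640 and T9232).

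Macrophages live in the stroma and fat of the mammary gland and accumulate in many mammary tumors. Emr1 (the F4/80 antigen), the lysosomal glycoprotein Cd68 and Csf1r, the receptor through which CSF1 and IL-34 keep macrophages alive, are general markers of the lineage. Mrc1, the mannose receptor, and Cd163, the receptor for haemoglobin-haptoglobin complexes, are typical of tissue-resident and alternatively activated macrophages. Arg1 and Nos2 compete for arginine, which arginase 1 turns into ornithine and urea and inducible nitric oxide synthase into citrulline and nitric oxide; they are the classical pair used to tell alternative from inflammatory activation in mice. Trem2 is a lipid-sensing receptor that signals through Tyrobp, and C1qa and C1qb encode chains of C1q, the recognition protein of the classical complement pathway, which macrophages make in most tissues. None of these genes belongs to macrophages alone. Arg1 and Nos2 can be made by epithelial cells and neutrophils, and Cd68 is found at low levels in many cells.

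Arg1 and Nos2 were upregulated in tumors, Cd163 was downregulated, and the other 7 genes did not pass the test (limma on log2(CPM + 0.5), where CPM are the fragment counts of a gene scaled to library size, two-sided, Benjamini-Hochberg adjusted p of at most 0.05 over all 15280 genes and a fold change of at least 2). Over all genes 14.5% were upregulated and 13.7% downregulated by the same rule, so 2 of 10 and 1 of 10 are close to the background. All 3 tumors lay above all 3 glands for Arg1, Nos2 and C1qa, against 27.6% of all genes. None of the 10 had all tumors below all glands, against 26.3% of all genes. The median log2 fold change of the 10 genes was 0.60, beside 0.00 over all genes.

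**Figure D1:**
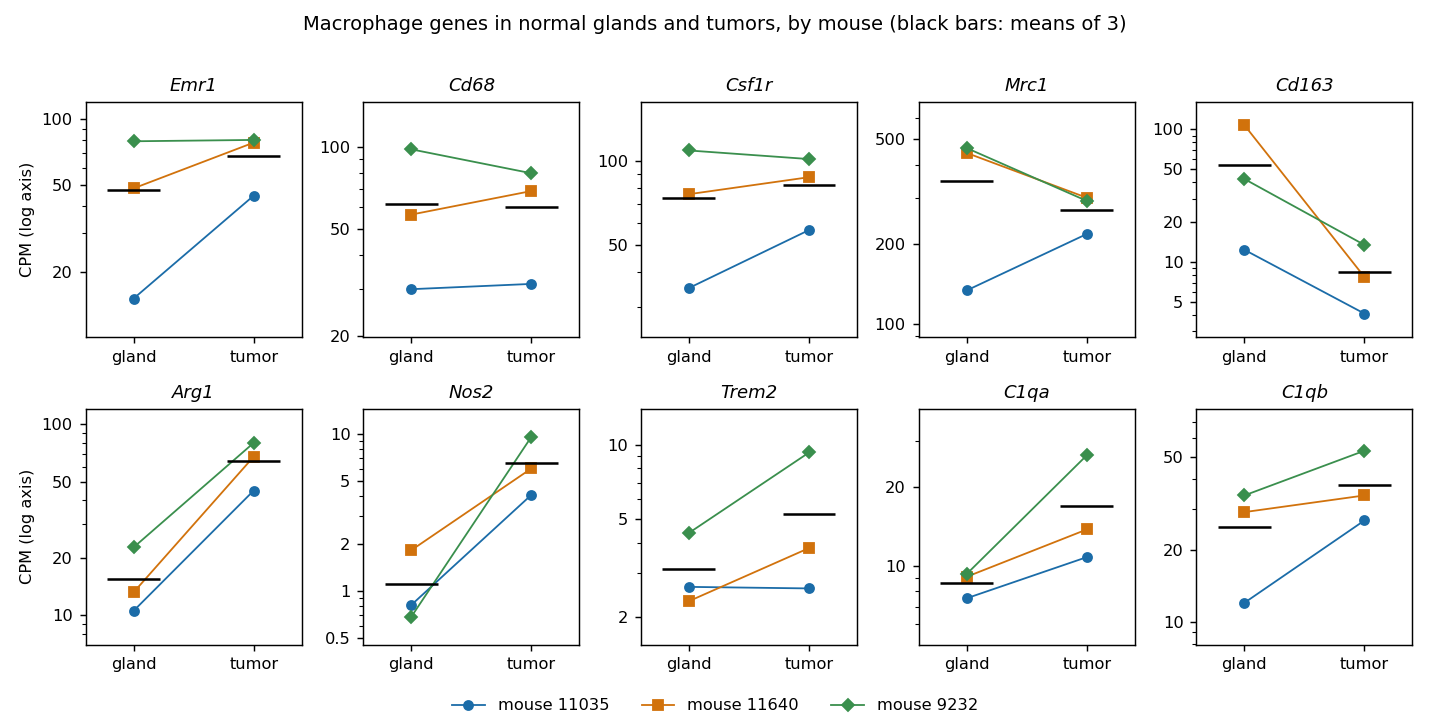
CPM (log axis, scaled per gene) of the 10 macrophage genes in the normal gland and the tumor of each of 3 mice; lines join the tissues of a mouse and black bars are means of 3. Arg1 and Nos2 rise and Cd163 falls in every mouse, while T11035 is the lowest tumor for all 10 genes.

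The libraries held 4750989 to 7806908 fragments on genes, and 3 fragments were worth 0.393 to 0.610 CPM. Markers of other cell types differed between the tissues. The summed CPM of 6 keratinocyte markers was 21.6 to 62.9 in glands and 2834 to 4172 in tumors, and all 6 were upregulated. The 6 adipocyte markers summed to 909 to 1532 CPM in glands and 12.0 to 19.3 in tumors, the 5 B cell markers to 169 to 450 and 7.08 to 10.3, and the 6 T cell markers to 168 to 426 and 25.3 to 44.1, with every gene of these 3 lists downregulated. The adipocyte marker Lep and the B cell marker Cd79a had at most 3 fragments in each tumor, and the keratinocyte marker Ivl at most 3 in each gland. The 9 measured genes of a second macrophage list (Fcgr1, Mertk, Aif1, Cd14, Lyz2, Mpeg1, Itgam, Cybb and Laptm5) summed to 1367 to 4208 CPM in glands and 1623 to 2978 in tumors, and these ranges overlapped. The RNA came from bulk tissue, in which fewer cells of a type and less RNA per cell cannot be told apart.

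**Figure D2:**
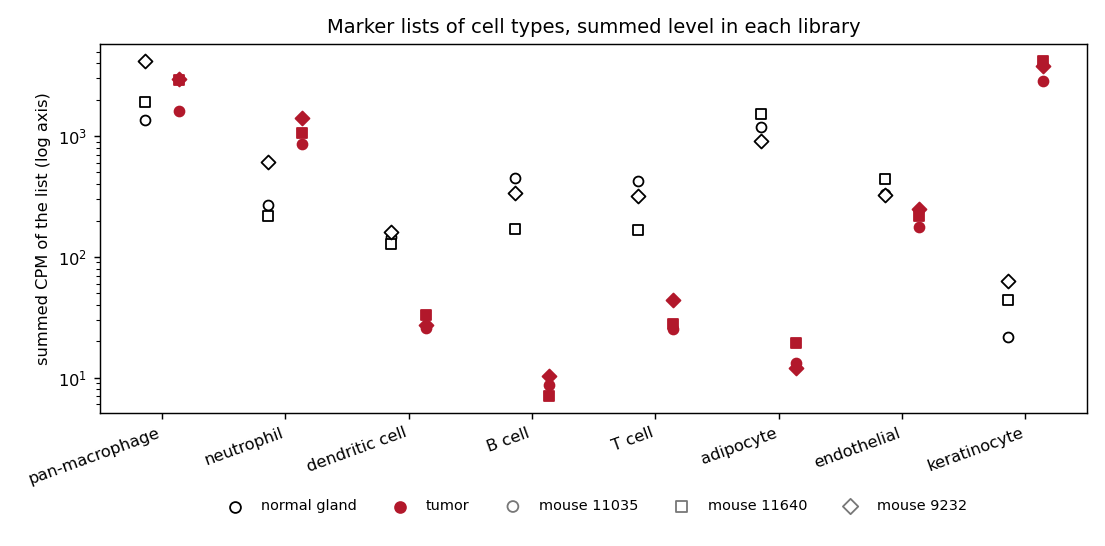
Summed CPM (log axis) of 8 marker lists in each library, glands open and tumors filled, with a symbol for each mouse. The macrophage sums overlap between tissues. Dendritic cell, B cell, T cell, adipocyte and endothelial sums are lower in all tumors, although only 2 of the 5 endothelial genes were downregulated. Neutrophil and keratinocyte sums are higher in all tumors, although 2 of the 7 neutrophil genes were downregulated.

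Emr1 lies at chr17:57498109-57622952, plus strand (mm9, GENCODE gene model). It measured 15.0, 48.2 and 79.3 CPM in M11035, M11640 and M9232 and 44.7, 78.2 and 80.5 CPM in T11035, T11640 and T9232. The tumor was higher in 3 of 3 mice, but M9232 lay above T11640 and the groups overlapped. The difference in means was smaller than the spread between glands, with a log2 fold change of 0.75 ± 0.53 (SE, limma adjusted p = 0.289, 95% interval -0.46 to 1.96). Csf1r (chr18:61265226-61291803, plus strand) measured 35.0, 76.1 and 109 CPM in the glands and 56.6, 87.7 and 102 in the tumors, for a log2 fold change of 0.26 ± 0.39 (SE, limma adjusted p = 0.627). The highest and the lowest library of this gene were both glands. Exons of Csf1r overlap those of Hmgxb3, and the strand setting of the counting is not given in the sources used here, so part of its count may belong to that gene.

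Cd68 (chr11:69477715-69479655, minus strand) showed the smallest difference of the 10 genes. Its values were 29.9, 56.3 and 98.1 CPM in glands and 31.3, 68.8 and 80.0 CPM in tumors. The log2 fold change was 0.02 ± 0.46 (SE, limma adjusted p = 0.978), with a 95% interval of -1.03 to 1.07 that leaves room for a change of up to about 1 log2 unit in either direction. Its sign turned when any of M11035, T11640 or T9232 was left out. The growth factors that act through Csf1r moved little: Csf1 had a log2 fold change of 0.52 (limma adjusted p = 0.120), although each tumor (42.6 to 52.6 CPM) lay above each gland (22.2 to 41.4 CPM), and Il34 one of 0.25 (limma adjusted p = 0.585).

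Within the second macrophage list 2 of 9 genes were upregulated and 0 downregulated, against 14.5% and 13.7% of all genes. The log2 fold changes of the list had a median of 0.81, with 6 of the 9 above 0. The others were Mertk, Laptm5 and Lyz2. Mertk lay lower in every tumor than in every gland (log2 fold change -0.68, limma adjusted p = 0.0902). Laptm5 was lower in the tumor of every mouse (-0.77, limma adjusted p = 0.0655), and Lyz2 had a log2 fold change of -0.20. The upregulated genes were Fcgr1, the high-affinity IgG receptor, from 2.24, 5.12 and 8.89 CPM in glands to 32.9, 36.2 and 46.9 CPM in tumors, and Itgam, the CD11b integrin chain, which is shared with neutrophils. Itgam rose by 1.52 ± 0.27 on the log2 scale (SE, limma adjusted p = 0.00258). Spi1, which was also listed, was not in the table.

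Mrc1 was the most abundant of the 10 genes by CPM in every library. It lies at chr2:14151041-14253684, plus strand, and measured 134, 444 and 463 CPM in M11035, M11640 and M9232 and 219, 300 and 292 CPM in T11035, T11640 and T9232. T11640 and T9232 were lower and T11035 higher than the gland of the same mouse, and the log2 fold change was -0.17 ± 0.43 (SE, limma adjusted p = 0.777, 95% interval -1.15 to 0.81). Without M11035 the value was -0.76 with a limma adjusted p of 0.0120, still short of a 2-fold change. Without M11640 or M9232 its sign turned. The tumors agreed more closely with each other, with a highest value 1.37 times the lowest, beside 3.47 times in glands.

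Cd163 (chr6:124254669-124280545, plus strand) was lower in the tumor of 3 of 3 mice. It measured 12.4, 108 and 42.4 CPM in M11035, M11640 and M9232 and 4.09, 7.73 and 13.5 CPM in T11035, T11640 and T9232. T9232 lay just above M11035, so the groups overlapped, and the gland values spread 8.72-fold. The mean fell from 54.3 ± 49.0 CPM to 8.44 ± 4.74 CPM (SD, n = 3 per tissue), and the log2 fold change was -2.28 ± 0.71 (SE, limma adjusted p = 0.0309, 95% interval -3.88 to -0.67).

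That call rested on few libraries. It was lost without M11640 (log2 fold change -1.54, limma adjusted p = 0.0801), M9232 (-2.21, 0.0597), T11035 (-1.87, 0.110) or T11640 (-2.29, 0.0874), and held without M11035 (-3.08, 0.00270) or T9232 (-2.67, 0.0430). All of these values were negative. The adipocyte, B cell, T cell and dendritic cell lists fell over the same comparison. M11640, with the most Cd163, had the highest adipocyte sum of the glands (1532 CPM, beside 1200 in M11035 and 909 in M9232). M11640 also had the lowest B cell (169 CPM), T cell (168 CPM) and dendritic cell (129 CPM) sums of the glands. The part of these lists in the fall of Cd163 was not tested.

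Other genes of resident macrophages were measured beside Cd163. Of 16 listed, 5 were downregulated and 0 upregulated, against 13.7% and 14.5% of all genes. The log2 fold changes of the list had a median of -0.65. Timd4, a receptor for phosphatidylserine on dying cells, measured 75.8, 67.7 and 215 CPM in glands and 2.98, 3.67 and 4.35 CPM in tumors. Lyve1, a hyaluronan receptor of perivascular macrophages and of lymphatic endothelium, fell by 2.86 on the log2 scale, to 7.26, 4.85 and 11.5 CPM in tumors. In both genes every tumor lay below every gland. Cd209f, Fcna and Clec10a also fell, by 3.28, 2.63 and 1.79 on the log2 scale; Clec10a has a near-identical neighbour, Mgl2, and reads may be split between them. The 11 others included Maf, a transcription factor of mature macrophages, with a log2 fold change of -0.12, and Folr2 at -1.06 (limma adjusted p = 0.185).

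Promoter sequences of Cd163, Mrc1, Cd68 and C1qb are shown as a description. Their part in the expression of these genes was not tested. RefSeq promoters (GRCm38.p6, the 250 bases before the start of the gene, 5′ to 3′ on the strand of the gene) were matched for 5 of the 10 genes: Cd68, Mrc1, Cd163, Trem2 and C1qb. Capitals mark the core letters of the PU.1 motif, GAGGAA or its reverse complement TTCCTC. PU.1, encoded by Spi1, is the master transcription factor of the myeloid lineage.
Cd163 (chr6:124304401-124304650, plus strand): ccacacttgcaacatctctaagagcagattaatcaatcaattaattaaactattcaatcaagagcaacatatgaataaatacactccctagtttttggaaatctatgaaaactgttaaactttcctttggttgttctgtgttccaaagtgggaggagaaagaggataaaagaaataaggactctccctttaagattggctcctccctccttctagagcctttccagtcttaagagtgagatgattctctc
Mrc1 (chr2:14229164-14229413, plus strand): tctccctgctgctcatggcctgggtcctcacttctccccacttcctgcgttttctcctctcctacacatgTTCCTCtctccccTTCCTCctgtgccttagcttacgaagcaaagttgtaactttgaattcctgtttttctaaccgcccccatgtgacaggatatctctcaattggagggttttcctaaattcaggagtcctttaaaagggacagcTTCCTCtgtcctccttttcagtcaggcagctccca
Cd68 (chr11:69666171-69666420, minus strand): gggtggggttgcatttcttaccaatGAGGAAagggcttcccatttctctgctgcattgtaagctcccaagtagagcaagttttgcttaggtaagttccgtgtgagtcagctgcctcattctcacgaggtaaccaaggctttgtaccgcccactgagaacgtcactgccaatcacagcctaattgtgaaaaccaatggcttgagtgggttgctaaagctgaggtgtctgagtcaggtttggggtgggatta
C1qb (chr4:136886201-136886450, minus strand): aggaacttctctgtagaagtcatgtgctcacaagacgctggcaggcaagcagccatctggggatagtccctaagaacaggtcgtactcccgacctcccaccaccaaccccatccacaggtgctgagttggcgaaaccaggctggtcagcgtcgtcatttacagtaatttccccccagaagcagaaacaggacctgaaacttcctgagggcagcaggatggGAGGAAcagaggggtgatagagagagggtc
Mrc1 held 3 copies, which begin 180, 167 and 35 bases before the start. Cd68 held 1 at 225 bases and C1qb 1 at 30 bases, and Trem2 held 1 at 40 bases. The 6 letters did not occur in the window of Cd163. They occurred in 23.3% of the 32851 RefSeq promoters of the same length. The AP-1 letters TGANTCA were found on either strand in Cd68 (2 copies) and Trem2 (1 copy), against 6.75% of all promoters, and the CRE letters TGACGTCA, found in 1.55% of promoters, and the TATA box letters TATAAA, found in 12.4%, in none of the 5. The motifs did not overlap one another, and a match of letters is no evidence of binding.

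Arg1 (chr10:24635014-24647276, minus strand) rose in 3 of 3 mice. It measured 10.6, 13.2 and 22.7 CPM in M11035, M11640 and M9232 and 45.0, 67.8 and 80.0 CPM in T11035, T11640 and T9232. Every tumor lay above every gland, and the mean rose 4.15-fold, from 15.5 ± 6.38 to 64.3 ± 17.8 CPM (SD, n = 3 per tissue). The log2 fold change was 2.05 ± 0.31 (SE, limma adjusted p = 0.00103, 95% interval 1.34 to 2.76), and T11035, T11640 and T9232 were 4.26-fold, 5.13-fold and 3.52-fold above their own glands.

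Nos2 (chr11:78734289-78773756, plus strand) rose alongside at a far lower level. The glands measured 0.813, 1.82 and 0.684 CPM and the tumors 4.09, 6.03 and 9.59 CPM, in the order of the mice given for Arg1. These values rested on 4, 11 and 5 fragments in glands and 22, 46 and 64 fragments in tumors. Every tumor lay above every gland. The log2 fold change was 2.13 ± 0.40 (SE, limma adjusted p = 0.00301, 95% interval 1.23 to 3.03). The mice differed, from a log2 ratio of 1.49 for T11640 to 3.09 for T9232, whose gland had only 5 fragments.

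**Figure D3:**
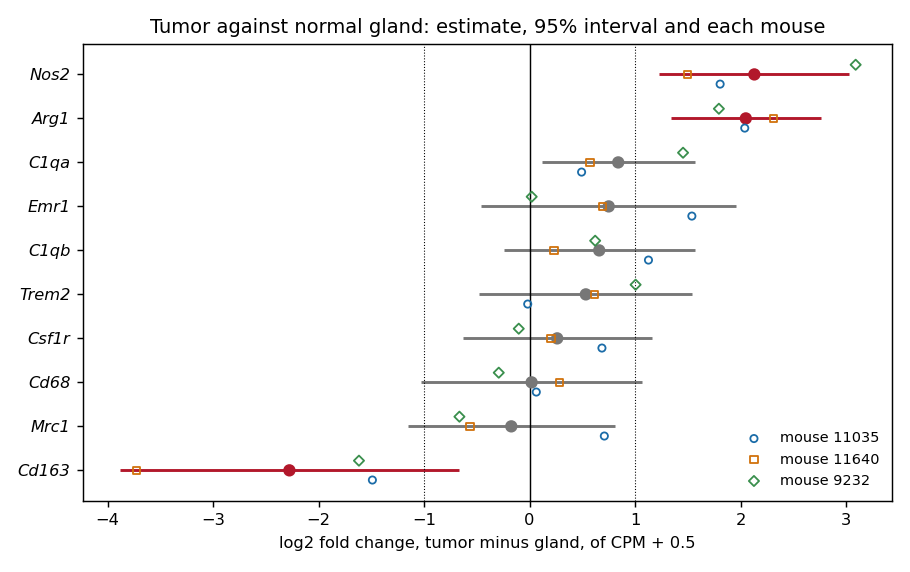
Log2 fold change of each gene, tumor minus gland, of CPM + 0.5: filled points are estimates with 95% intervals (red where the gene passed the test), open symbols the ratio in each mouse, and dotted lines a 2-fold change. Arg1 and Nos2 lie above and Cd163 below a 2-fold change in all 3 mice, and only C1qa of the other 7 has an interval above 0.

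The opposite labels usually attached to Arg1 and Nos2 did not separate here, since both rose. The other 16 genes of arginine and nitric oxide metabolism had a median log2 fold change of 0.36. Of them 3 were upregulated and 0 downregulated, against 14.5% and 13.7% of all genes, so 3 of 16 is close to the background. The 3 upregulated genes included Ddah1, which clears inhibitors of nitric oxide synthases (7.32, 6.94 and 5.61 CPM in glands and 111, 156 and 177 CPM in tumors). The others were Ass1, which rebuilds arginine from citrulline (log2 fold change 2.88), and the arginine transporter Slc7a1 (2.23). Arg2, the mitochondrial arginase, had a log2 fold change of 0.64 (limma adjusted p = 0.0486), below a 2-fold change, and its exons overlap those of Vti1b. Keratinocyte markers, given above, were higher in the same libraries. The 7 neutrophil markers went both ways, with 4 upregulated and 2 downregulated and sums of 216 to 612 CPM in glands and 862 to 1415 CPM in tumors; the tumor sums rest largely on S100a9 and S100a8, which keratinocytes can also make. The part of either list in the rise of Arg1 and Nos2 was not tested.

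Trem2 (chr17:48485726-48493472, plus strand) was a gene of low counts. It measured 2.64, 2.31 and 4.38 CPM in glands and 2.61, 3.80 and 9.29 CPM in tumors, and rested on 13 to 62 fragments per library. T9232 stood above the other 5 libraries, whereas T11035 and M11035 were level. The log2 fold change was 0.53 ± 0.44 (SE, limma adjusted p = 0.366). Its signalling partner Tyrobp had a log2 fold change of 0.83 (limma adjusted p = 0.0698), with T9232 (182 CPM) likewise the highest library.

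C1qa, C1qc and C1qb lie next to each other on chromosome 4 (C1qb at chr4:136436044-136442102, minus strand, C1qa at chr4:136451832-136454718, minus strand). C1qa measured 7.52, 9.08 and 9.30 CPM in glands and 10.8, 13.8 and 26.4 CPM in tumors, so that every tumor lay above every gland. Its log2 fold change was 0.84 ± 0.32 (SE, limma adjusted p = 0.0635, 95% interval 0.12 to 1.57), and it passed the test only without T11035, at 1.11 (limma adjusted p = 0.0324). C1qb measured 12.0, 29.1 and 34.2 CPM in glands and 26.8, 34.2 and 52.9 CPM in tumors. It was higher in the tumor of 3 of 3 mice, but M9232 and T11640 were level and M9232 exceeded T11035 (log2 fold change 0.66 ± 0.40, SE, limma adjusted p = 0.216). C1qc, which encodes the remaining chain of C1q, also overlapped between tissues (log2 fold change 0.57, limma adjusted p = 0.421). None of the 6 other genes of the C1 complex list passed the test.

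The spread among the glands was the other main feature of these genes. M11035 was the lowest gland for 8 of the 10 genes and M9232 the highest for 8, whereas over the 14712 genes that averaged 1 CPM or more M11035 was lowest for 36.0% and M9232 highest for 31.2%. The 10 genes had a median log2 value 1.33 below the mean of the other glands in M11035, beside 0.00 over all genes. The exceptions in M11035 were Nos2, lowest in M9232, and Trem2, lowest in M11640. M11035 also had the fewest fragments of the 6 libraries and the highest B cell and T cell sums of the glands (450 and 426 CPM). Their part in the low macrophage values was not tested.

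The SD of log2 CPM + 0.5 over the 3 glands was 1.54 for Cd163, 1.21 for Emr1 and 1.02 for Mrc1, larger than in 99.0%, 97.9% and 96.8% of genes. It was 0.16 for C1qa, larger than in 24.4% of genes, and the median gene had 0.28. Among the tumors, T11035 was the lowest tumor for 10 of 10 genes and T9232 the highest for 9 of 10, against 40.5% and 36.7% of all genes, the exception being Mrc1.

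As M11035 was low for most of the 10 genes, 9 of them were also set against Csf1r of the same library. On this scale every tumor lay below every gland for Cd163 and above every gland for Emr1, Arg1, Nos2 and C1qb. Over the 15279 other genes of the table, tumors lay above all glands on the ratio to Csf1r for 10% and below for 14.3%. The mean log2 ratio of Cd163 to Csf1r was -0.77 ± 1.11 in glands and -3.31 ± 0.39 in tumors (SD, n = 3), a difference of -2.54. The ratio of Arg1 rose by 1.79, to between -0.37 and -0.33 in the 3 tumors, and that of Nos2 by 1.87. Emr1 and C1qb gained 0.49 and 0.40.

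An exact two-sided permutation test of the ratios gave p = 0.1 for each of these 5 genes, the smallest that 3 against 3 allows, and 0.180 after Benjamini-Hochberg adjustment over the 9 genes. Ratios of Cd68 (difference -0.24), Mrc1 (-0.44), Trem2 (0.27) and C1qa (0.58) overlapped between tissues, with exact permutation p of 0.2 to 0.5. The ratio places genes relative to Csf1r and says nothing of which of the pair changed.

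**Figure D4:**
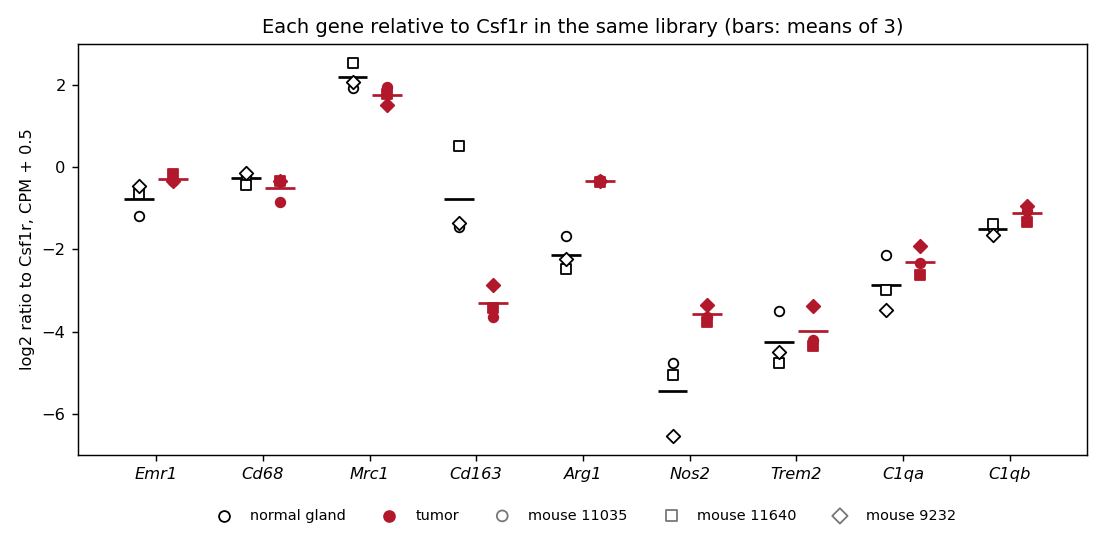
Log2 ratio of 9 genes to Csf1r (CPM + 0.5 of both) in each library, glands open and tumors filled, with a symbol for each mouse and bars for means of 3. The tumors of Arg1 fall on nearly 1 value, between -0.37 and -0.33, and all tumors of Cd163 lie between -3.63 and -2.87, below its lowest gland at -1.46.

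Levels of different genes were compared per kb of the longest protein-coding transcript. In glands the order of the mean CPM per kb was Mrc1 (64.8), Cd68 (49.9), C1qb (23.1), Csf1r (15.6), Emr1 (14.6), Cd163 (12.1), Arg1 (10.5), C1qa (8.30), Trem2 (2.86) and Nos2 (0.26). Neighbours in this order overlapped over the 3 glands as far as C1qa, while Trem2 (2.13 to 4.02) and Nos2 (0.16 to 0.43) were each clear of the gene above. In tumors the order was Mrc1 (50.5), Cd68 (48.8), Arg1 (43.5), C1qb (34.9), Emr1 (20.9), Csf1r (17.5), C1qa (16.3), Trem2 (4.81), Cd163 (1.88) and Nos2 (1.57). Here Trem2 (2.39 to 8.54) was clear of C1qa (10.4 to 25.4), and all other neighbours overlapped. Arg1 thus moved from the seventh to the third place and Cd163 from the sixth to the ninth.

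Over the 6 libraries Emr1 was most like Csf1r among the 10 genes (Pearson r of log2 CPM + 0.5 of 0.966) and C1qb (0.948), and Cd68 was most like Csf1r (0.941). Arg1 ran with Nos2 (0.892) and Trem2 with C1qa (0.878), whereas Cd163 and Csf1r gave 0.322. After the mean of each tissue was removed, Emr1 and Csf1r kept 0.990 and Trem2 and C1qa 0.916, but Arg1 and Nos2 only 0.230. The points share libraries, and 6 points of 3 mice give these values as descriptions. Among all genes whose mean reached 5 CPM, those most like Emr1 were Tlr8 (0.998), Mid2 and Fcgr3, a low-affinity IgG receptor; those most like Csf1r were Rab11fip5 (0.985), Tmed10 and Tpp1; and those most like Cd68 were E430025E21Rik (0.982), Mier1 and Rab11fip5. Mrc1 was followed by Spg20 (0.986), Maoa and Lgals8, Cd163 by Ap2a2 (0.995), Glod4 and Zfhx3, and Trem2 by Ipmk (0.989), the cholesterol transporter Abcg1 and the interleukin-10 receptor chain Il10ra. Arg1 was followed by the chemokine Ccl3 (0.999), Prrg4 and Fam129b, and Nos2 by Gxylt2 (0.997), Tctex1d2 and Myadm. C1qa was followed by Igf1r (0.987), Ski and Maff, and C1qb by genes that include Inhbb (0.988) and Cln3. An r of at least 0.95 was reached by 666 of 11400 genes for Arg1 and by 381 of 11401 for Nos2. The genes named for these 2 are therefore a few of many. For the other members the number ran from 13 for Cd68 to 57 for Cd163.

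**Figure D5:**
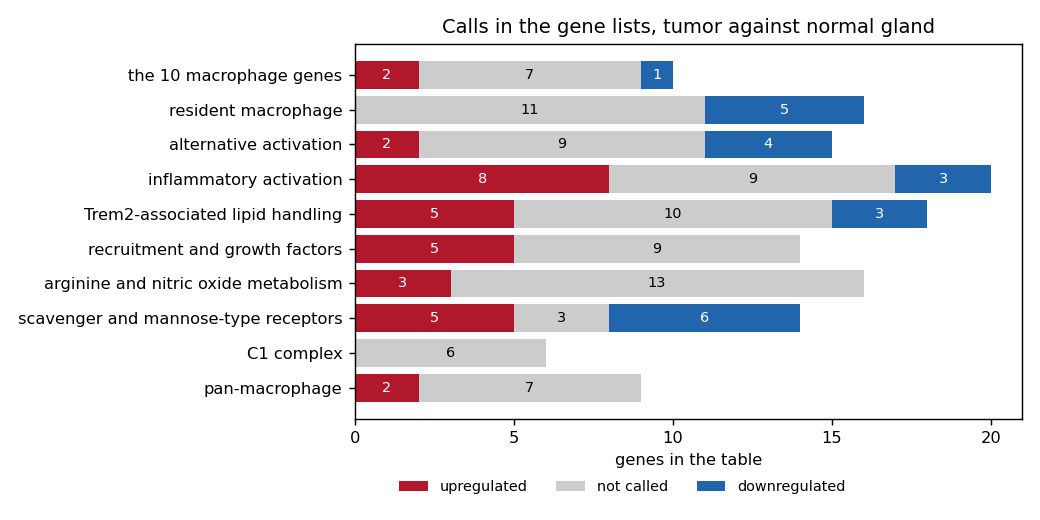
Number of genes upregulated, not called and downregulated in tumors for the 10 macrophage genes and 9 related lists. Over all genes 14.5% were upregulated and 13.7% downregulated. The calls of the resident macrophage list are 5 down and 0 up, those of the recruitment list 5 up and 0 down and those of the arginine list 3 up and 0 down, with most genes of these 3 lists not called; the scavenger receptor, alternative and inflammatory activation lists hold calls in both directions.

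Genes of alternative activation other than the 10 went both ways. Of 15, 2 were upregulated and 4 downregulated, against 14.5% and 13.7% of all genes. The log2 fold changes of the list had a median of -0.61. Retnla, a secreted product of interleukin-4-treated macrophages, measured 23.2, 203 and 60.9 CPM in glands and 0.744, 1.97 and 1.20 CPM in tumors. The interleukin-4-induced transcription factor Irf4 fell by 3.21 and the chemokine Ccl22 by 2.73 on the log2 scale, and Cd209a, also counted among the dendritic cell markers, fell by 2.41. Il1rn, the interleukin-1 receptor antagonist, measured 12.0, 8.75 and 31.3 CPM in glands and 207, 266 and 369 CPM in tumors, and Il13ra1 rose by 2.27. Arg1 was thus accompanied by rises of 2 and falls of 4 genes that are listed with it as signs of alternative activation. B cell, T cell and dendritic cell markers fell and keratinocyte markers rose in the same libraries. The part of these cell types in the changes of the listed genes was not tested.

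Of 20 genes of inflammatory activation 8 were upregulated and 3 downregulated, against 14.5% and 13.7% of all genes. The log2 fold changes of the list had a median of 0.36. Il1b, the inflammatory cytokine that Il1rn opposes, measured 10.2, 6.77 and 6.16 CPM in glands and 250, 296 and 376 CPM in tumors; its exons overlap those of Gm14047. Ptgs2, the inducible cyclooxygenase, rose from 1.42, 1.65 and 2.87 to 56.4, 69.3 and 67.9 CPM. Il6 had 0, 0.661 and 0 CPM in glands and 5.84 to 7.63 CPM in tumors. Ccl5, a chemokine that T cells also make, fell by 3.69 on the log2 scale. Both chains of interleukin-12, Il12a and Il12b, fell, to at most 0.744 CPM in any tumor. They were low in glands too, at 3.25, 0.661 and 2.46 CPM for Il12a (16, 4 and 18 fragments). Il12b measured 1.42, 2.31 and 4.10 CPM in glands (7, 14 and 30 fragments). Tnf had a log2 fold change of 0.71 and did not pass the test (limma adjusted p = 0.0883). Keratinocyte and neutrophil sums were higher in all tumors, although 2 of the 7 neutrophil genes were downregulated. B cell, T cell and dendritic cell sums were lower in all tumors. The part of these cell types in the changes of the inflammatory genes was not tested.

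In the scavenger and mannose-type receptor list 5 of 14 genes were upregulated and 6 downregulated, against 14.5% and 13.7% of all genes. The log2 fold changes of the list had a median of -0.44. Msr1, the class A scavenger receptor of macrophages, measured 40.9, 63.1 and 143 CPM in glands and 310, 449 and 444 CPM in tumors. Marco, a related receptor of certain resident macrophages, measured 57.3, 23.8 and 133 CPM in glands and 0, 0 and 0.300 CPM in tumors, where no library held more than 3 fragments. Mrc2, the collagen receptor related to Mrc1, rose by 2.39 ± 0.19 on the log2 scale (SE, limma adjusted p = 3.04e-05), and the oxidized LDL receptor Olr1 by 5.08. Cd209b, a lectin of marginal zone macrophages, measured 72.0, 120 and 379 CPM in glands and no more than 1.67 CPM in any tumor, and Stab2 fell to at most 0.372 CPM.

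Of 18 genes of lipid handling that accompany Trem2 in lipid-laden macrophages, 5 were upregulated and 3 downregulated. The shares over all genes were 14.5% and 13.7%. The log2 fold changes of the list had a median of -0.07. Fabp5, Lgals3 and Cd9 rose by 2.09, 1.94 and 1.80 on the log2 scale. Keratinocyte markers, given above, rose in the same libraries, and their part in these 3 rises was not tested. Lpl, Cd36 and Plin2 fell by 4.82, 4.50 and 2.02, and these are also genes of adipocytes, whose markers fell in the same libraries. Of 14 measured factors of macrophage recruitment and growth 5 were upregulated and 0 downregulated, against 14.5% and 13.7% of all genes. The log2 fold changes of these factors had a median of 0.55. The monocyte chemokines Ccl2, Ccl7 and Ccl12 rose by 2.43, 3.19 and 2.40 on the log2 scale; Ccl2 measured 3.86, 3.14 and 6.02 CPM in glands and 20.5, 21.6 and 34.5 CPM in tumors.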

How the data were processed

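Total RNA of 3 tumors and 3 matched glands was amplified with the Ovation RNA-Seq System V2 and sequenced as read pairs on a HiSeq instrument. The authors mapped read pairs to mm9 with TopHat2 2.0.3, counted fragments per RefSeq gene with HTSeq 0.5.3p9, removed genes with fewer than 10 fragments and deposited edgeR 3.6.1 CPM (counts scaled to library size) on effective library sizes; CASAVA 1.8.2 is named in the submitters' processing notes. The deposited CPM values have column sums that differ between libraries and were therefore treated as a signal per gene scaled by the authors, with the test planned for CPM. Whole fragments were recovered from the steps of the values for 100% of them, within 0.001 fragments. This tolerance widened in proportion to the count for genes of high counts.

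Each library was grouped by its label. limma 3.58.1 with a trend was fitted to log2(CPM + 0.5) of all 15280 genes in the 6 libraries without a block, and a call needed an adjusted p of at most 0.05 and a log2 fold change of at least 1. Log2 fold changes understate those of low genes. Intervals are at 95%. The script was tested on simulated data. Alternatives were 2 pseudocounts (0.1 and 1), a mean of at least 1 CPM, a block for the mouse, the plain library total, edgeR 4.0.16 and DESeq2 1.42.0 on recovered fragments, and each library left out. Exact permutation tests used scipy 1.17.1. The tissues of a mouse share its number and hence pair the samples; deviations from the tissue means correlated over 14712 genes at r = 0.11 between M11035 and T11035, 0.15 between M11640 and T11640 and 0.02 between M9232 and T9232. No 2 libraries of a tissue were copies (lowest chi-square per degree of freedom 13.0). Each p measures the spread between 3 mice per tissue, and counting error alone underlies the 3-fragment floor. Gene positions and transcript lengths came from GENCODE gene models (mm9) and promoters from RefSeq (GRCm38.p6).

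The 10 genes and the 16 other lists were chosen with earlier results of these data known. From each list up to 3 called genes in each direction were named. These had the largest change, a mean of at least 1 CPM and the same direction in 3 mice. Also named were C1qc, Tyrobp, Csf1, Il34, Arg2 and Mrc2 and the 3 genes most like each of the 10. Fcna, Clec10a, Maf, Folr2, Tnf, Mertk, Laptm5, Lyz2 and Cd209a under alternative activation were named after their values were seen. Some results that this rule would name are not reported here.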

Additional observations from a re-analysis of the deposited data

How the results depend on the processing

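Arg1 and Nos2 kept their call under all 13 alternatives, with log2 fold changes of 1.82 to 2.35 and 1.82 to 2.58. Cd163 was negative under all 13 (-3.08 to -1.54) and called under 9. The number of genes upregulated among the 10 was 2 to 3 with a library left out, and the number downregulated 0 to 1. The mouse as a block left 2 upregulated and 1 downregulated and changed no call among the 10. The paired fit called 4298 genes in all, beside 4309. It moved the limma adjusted p of C1qb from 0.216 to 0.0456 and of C1qa from 0.0635 to 0.0381, both still below a 2-fold change. That of Emr1 went from 0.289 to 0.0706 and that of Cd163 from 0.0309 to 0.00620. Only Nos2 had a higher value with the block, 0.00546 beside 0.00301. Signs turned for 3 genes that did not pass the test: Cd68 was -0.0356 with edgeR and -0.0291 with DESeq2 on recovered fragments and -0.41 to 0.43 with a library left out, Csf1r -0.20 to 0.62 and Mrc1 -0.76 to 0.14 with a library left out, and the cause was not tested. The other 4 genes kept their direction under all 13 alternatives, and of them C1qa was called without T11035. Nos2 rested on 4 to 64 and Trem2 on 13 to 62 fragments per library, the fewest of the 10 genes. With 3 mice per tissue, intervals of the 7 genes that were not called reached a 2-fold change for each.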

Other observations

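The markers of neutrophils, cells that share Itgam with macrophages, did not move as a group. Of 7 measured genes 4 were upregulated and 2 downregulated (14.5% and 13.7% of all genes). S100a8 and S100a9, calcium-binding proteins of neutrophils that stressed keratinocytes also make, rose by 4.34 and 4.26 on the log2 scale, and Csf3r, the receptor for granulocyte colony-stimulating factor, measured 16.9, 10.7 and 16.1 CPM in glands and 73.7, 59.5 and 103 CPM in tumors. Ngp and Ltf, proteins of the secondary granules, fell by 2.96 and 2.97. Ngp measured 19.5, 6.11 and 6.29 CPM in glands and 1.12, 1.31 and 0.150 CPM in tumors; Ltf, which mammary epithelium also secretes, measured 103, 148 and 500 CPM in glands and 44.8, 22.3 and 14.8 CPM in tumors.

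All 7 measured dendritic cell markers were downregulated. Clec9a, a receptor of cross-presenting dendritic cells, fell by 2.48 on the log2 scale and Ccr7, which guides dendritic cells to lymph nodes, by 2.64. Of the 5 endothelial markers Kdr and Tek were downregulated (to 41.9 to 57.8 and 20.7 to 30.3 CPM in tumors, from 73.2 to 130 and 46.6 to 103 CPM in glands) and the other 3 were not called.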
